A study of Mus musculus with 31 samples.

Results

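Transcripts were counted in wild-type (WT) mouse natural killer (NK) cells that had been given the cytokine TGFB1 for 24 h, in 4 libraries, and in unstimulated WT NK cells, in 4 libraries. All autosomal genes that passed a filter on low counts were compared between these 8 libraries, which gave 9749 genes of the 23982 autosomal genes and 27179 genes in the table. The series held 31 libraries of NK cells under 3 labels: WT, TGFBRII_KO (knockout of the type II TGF-β receptor, gene Tgfbr2) and CIS_KO (knockout of CIS, gene Cish). Each label had unstimulated cells and cells given TGFB1 for 4 h or 24 h, and the series asked how blocking TGF-β and CIS affects NK cells. From it, this comparison also used 3 unstimulated and 3 24 h libraries labelled TGFBRII_KO, 4 and 4 labelled CIS_KO, and 2 WT libraries at 4 h. The labels name sorted ex vivo NK cells and biological replicate numbers, and they give no dose of TGFB1, strain, age, sex, organ, culture medium or way in which the knockouts were made. Cells kept for 24 h without TGFB1 were not analysed here, so within WT the effect of TGFB1 and that of time in culture cannot be told apart.

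NK cells, lymphocytes of the innate immune system, release perforin and granzymes onto tumour cells and infected cells, and interleukin 15 keeps them alive and dividing. TGFB1 binds the type II receptor, which recruits and activates the type I receptor TGFBR1, and this kinase phosphorylates SMAD2 and SMAD3. The SMADs enter the nucleus with SMAD4 and change transcription, among others of inhibitors that turn the pathway down again. In NK cells TGF-β is known to restrain growth and effector function and to favour features of tissue-resident type 1 innate lymphoid cells. CIS is a suppressor of cytokine signalling that dampens the response of NK cells to interleukin 15.

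Total counts ran from 673239 to 1135104 in the 8 WT libraries, with a median of 757683, and from 297561 to 1403005 over all 31, a depth that leaves weakly expressed genes imprecise. NK marker genes were high in all 8, with a summed level of 3729 to 4779 counts per 1000000 (CPM) in unstimulated cells and 3733 to 4549 at 24 h. The 11 T cell marker genes summed to 573 to 644 CPM and 518 to 610 CPM, mostly Cd3d, Cd3g, Trbc1 and Trbc2, while Cd4 and Cd8a had 0 or 1 count per library. The summed B cell markers reached at most 7.63 CPM, the erythroid and platelet markers at most 8.63 CPM, and the myeloid markers 215 to 229 and 223 to 300 CPM, mostly Itgax (193 ± 6.61 and 249 ± 37.4 CPM, called higher, but not without 24 h replicate 1 or 3), with Lyz2 at 0. Markers of other innate lymphoid cells (ILC2 and ILC3) summed to 330.3 to 431 and 312 to 441 CPM. The stroma and epithelium markers summed to 267 to 313 and 314 to 335 CPM without overlap, mostly Pecam1 (202 ± 14.6 and 259 ± 21.6 CPM, called higher), with Alb, Dcn, Cdh5 and Krt8 at 0. Pearson correlation of libraries was 0.945 to 0.972 within unstimulated cells, 0.929 to 0.968 within 24 h and 0.871 to 0.909 between them. Xist, an X-linked RNA, was at 91.1 to 144 CPM in unstimulated cells and 115.5 to 183 CPM at 24 h, lowest in replicate number 2 of both groups. Transcripts of 4 Y-linked genes summed to 91.1 and 124 CPM in the unstimulated and the 24 h library with replicate number 2, to 19.1 and 14.8 CPM in those with number 1, to 7.54 and 5.96 CPM with number 3, and to 1.38 and 1.48 CPM with number 4. Leaving out both libraries numbered 2, a setting chosen after this was seen, gave 1578 called genes (689 higher and 889 lower) in place of the 2070 below. Counts of very abundant short genes rose less than in proportion to depth: the median slope of log count on log depth was 0.56 in the 200 genes highest per length, against 1.16 over 8507 genes. A fit with depth as a covariate is also given below. Beyond these 2 settings, the part of this slope, and of the Y-linked difference, in the results below was not tested. Because RNA was taken from bulk cells, fewer cells of a type and less RNA per cell cannot be told apart.

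Of the 2 genes that the series targeted, Cish (chromosome 9 of mm10) stood at 158 ± 21.6 CPM in unstimulated WT cells and at 25.2 ± 6.77 CPM in unstimulated CIS_KO cells, lower as the label says. Tgfbr2 stood at 213 ± 26.6 CPM in WT (n = 4) and 229.7 ± 8.18 CPM in the libraries labelled TGFBRII_KO (n = 3), so counts over the whole gene do not check that label. In WT cells both genes were higher after 24 h of TGFB1. Cish rose from 175, 151, 129.9 and 174 CPM in replicates 1 to 4 to 218, 180.2, 228 and 248 CPM (log2 change 0.48 ± 0.11, adjusted p = 0.00106), with no overlap. Tgfbr2 changed by 0.43 ± 0.12, adjusted p = 0.00822, with overlapping libraries, and without 24 h replicate 4 the change was 0.33 at an adjusted p of 0.0571.

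At 24 h, 951 genes (9.75% of those tested) were higher and 1119 (11.5%) were lower, together 2070 (21.2%), at an adjusted p under 0.05 in edgeR's quasi-likelihood test. The falls were larger than the rises: the median log2 change was 0.68 among called rises and -0.83 among called falls, while over all genes it was 0.03. At least a 2-fold change was seen in 287 rises (2.94%) and 465 falls (4.77%), and at least a 4-fold change in 80 and 172. The 4 and 4 libraries did not overlap for 710 of the higher and 954 of the lower genes; over all tested genes, called or not, the share that did not overlap was 9.55% higher and 11.9% lower, 21.5% in all. Rises included 9 of 16 inhibitors of TGF-β signalling and 10 of 22 genes of tissue residency. Falls included all 50 kinetochore and spindle genes, 19 of 20 origin licensing genes, 20 of 23 cholesterol genes and Prf1, the gene of perforin.

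**Figure D1:**
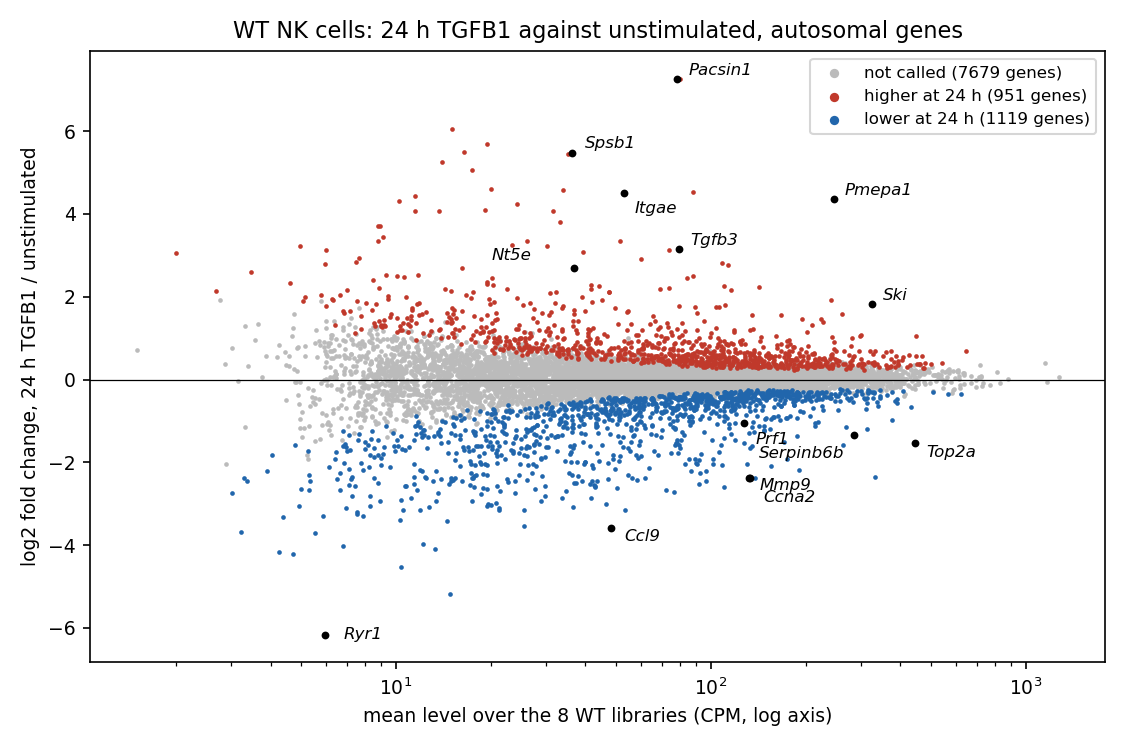
Each point is an autosomal gene, with its mean level over the 8 WT libraries (x axis, CPM, log scale) and its log2 fold change between 24 h TGFB1 and unstimulated cells (y axis). Genes called higher (951) and lower (1119) are coloured, and the largest changes belong to genes of low to moderate level, such as Pacsin1 above and Ryr1 below.

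The 15 largest rises with separate libraries and at least 5 CPM at 24 h had means of 0.318 to 22.8 CPM in unstimulated cells, and 13 of them were under 5 CPM there. Igha, the constant region of immunoglobulin A, whose unrearranged transcript TGF-β induces in B cells, had the largest log2 change. It was at 0, 1.25, 0 and 2.76 CPM in unstimulated replicates 1 to 4 and at 185, 152, 174 and 122 CPM at 24 h (7.27 ± 0.38, adjusted p = 7.40e-16). The constant regions of immunoglobulins share sequence, so their counts are uncertain. Ighm, which was chosen after its values were seen, went from 13 to 41 counts per library to 94 to 132, while the B cell marker Cd79a had 0 or 1 count in every library and Ms4a1 had 0. Pacsin1, a membrane-remodelling protein first known from neurons, was at 0, 2.50, 0.838 and 0 CPM in unstimulated cells and at 138, 181, 165 and 138 CPM at 24 h (7.25 ± 0.37, adjusted p = 7.40e-16). Every library at 24 h was thus far above every unstimulated one for both genes.

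Other large rises included channel, transport and receptor genes. Scn3b, a sodium channel subunit, changed by 6.05 ± 0.68, adjusted p = 3.40e-08 and Slc4a11, a membrane transporter, by 4.61 ± 0.50, adjusted p = 6.30e-09. Vipr2, the receptor for vasoactive intestinal peptide that raises cyclic AMP, went from 3.81, 8.74, 6.71 and 9.67 CPM to 168, 157, 168 and 181 CPM (4.52 ± 0.22, adjusted p = 7.90e-17). It was detected in all 4 unstimulated libraries, so its rise rests on counts in both groups. Gpr155, an orphan membrane receptor, went from 2.54, 0, 2.52 and 0 CPM to 47.00, 83.1, 74.5 and 72.7 CPM (5.45 ± 0.39, adjusted p = 3.71e-13). Rnase6, a secreted ribonuclease of innate defence, changed by 5.69 ± 0.58, adjusted p = 6.36e-09, and the little-known gene Ccdc74a by 5.49 ± 0.56, adjusted p = 3.71e-09. Tbc1d16, which switches off a RAB GTPase, Sec14l2, a lipid-binding protein, Sec1, a fucosyltransferase, and Apol9b, an apolipoprotein L gene with close copies, changed by log2 values between 4.43 ± 0.56 and 5.25 ± 0.60. The remaining members of the 15, Spsb1, Itgae and Pmepa1, are described with their pathways below.

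The 15 largest falls with separate libraries were led by Ryr1, the calcium release channel first known from muscle. Ryr1 had 43 counts over the unstimulated libraries (7.63, 12.5, 15.1 and 12.4 CPM) and 0 in every 24 h library, which makes it at least 12-fold lower against a floor of 3 counts over the group. Ccl9, a chemokine gene and the most abundant of the 15, was at 66.1, 79.9, 109 and 101 CPM in unstimulated cells and at 5.37, 6.48, 7.45 and 10.4 CPM at 24 h (-3.59 ± 0.30, adjusted p = 1.23e-11). Its fall was 12.1-fold, and no library overlapped. C5ar1, the receptor for complement fragment C5a, went from 31.8, 12.5, 29.3 and 27.6 to 1.34, 1.08, 2.98 and 0 CPM (-4.10 ± 0.50, adjusted p = 7.21e-08). Filip1, a filamin-binding protein, went from 38.1, 46.2, 56.2 and 48.3 to 4.03, 6.48, 2.98 and 1.48 CPM (-3.53 ± 0.37, adjusted p = 2.66e-09). Fads2, a fatty acid desaturase, changed by -3.97 ± 0.49, adjusted p = 8.76e-08. The replication-dependent histone genes H2ac23 and H2ac4, which have near-identical copies, changed by -4.52 ± 0.80 and -3.29 ± 0.52. Fancd2, a DNA crosslink repair gene, and the overlapping gene Fancd2os changed by -3.41 ± 0.54 and -3.40 ± 0.48, and reads of the pair may be shared. Acvrl1, Psg17, Bco1, Mlf1, Rnf183 and Mamdc2 completed the group with changes between -3.33 ± 0.75 and -4.20 ± 0.76, each with a mean under 14 CPM in unstimulated cells.

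The TGF-β pathway is described by role, from ligands to inhibitors. Of 9 ligand genes, 3 passed the filter and 2 rose. Tgfb3, a second ligand of the same receptors, was at 8.90, 19.98, 15.9 and 19.3 CPM in unstimulated cells and at 164, 135, 133 and 139.5 CPM at 24 h (3.14 ± 0.16, adjusted p = 1.08e-16), an 8.84-fold rise with no overlap. Tgfb1 itself went from 17.8, 12.5, 16.8 and 15.2 to 34.9, 15.1, 26.8 and 38.6 CPM (0.84 ± 0.27, adjusted p = 0.0226), with overlap. The call for Tgfb1 was lost without 24 h replicate 1 (adjusted p = 0.0828), without 24 h replicate 4 (0.107) and without unstimulated replicate 2 (0.0707). Tgfb2 had 0 counts over the unstimulated and 6 over the 24 h libraries and was not tested.

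Among 9 measured receptor and activator genes, 3 rose (33.3%, beside 9.75% of all tested genes) and 2 fell (22.2%, beside 11.5%). Tgfbr3, the co-receptor betaglycan, went from 1.27, 0, 1.68 and 1.38 to 6.71, 25.9, 14.9 and 19.3 CPM (3.71 ± 0.63, adjusted p = 3.43e-05), while Tgfbr1, the type I receptor, changed by 0.20 ± 0.14, adjusted p = 0.332 and was not called. Acvrl1, the alternative type I receptor ALK1, fell from 5.08, 8.74, 15.1 and 4.14 CPM to 0, 1.08, 0 and 0 CPM (-4.18 ± 0.76, adjusted p = 7.52e-05), and only 1 library at 24 h held a count of it. Nrros, which tethers latent TGF-β to the cell surface, changed by -0.54 ± 0.10, adjusted p = 1.25e-04. Of 8 SMAD and co-activator genes, 1 was called (12.5%, beside 11.5% of all tested genes called lower). Smad3 fell from 57.2, 59.9, 84.7 and 62.2 to 41.6, 37.8, 29.8 and 40.1 CPM (-0.84 ± 0.23, adjusted p = 0.00705), and without unstimulated replicate 3 its change was -0.67 at an adjusted p of 0.0563. Smad2 and Smad4, its partners, changed by -0.21 ± 0.12 and -0.19 ± 0.10 and were not called.

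Of 16 measured inhibitors of the pathway 9 were higher (56.2%, beside 9.75% of all tested genes) and 0 lower, with a median log2 change of 0.80. The other 7 were not called, and the lowest change was -0.31. Without both libraries numbered 2 the counts were 8 higher and 1 lower. The summed level of the 16 was 1079 to 1146 CPM in the unstimulated libraries and 2207 to 2619 CPM at 24 h. Most of the rise in this sum came from Pmepa1, Ski and Skil. Pmepa1, a membrane protein that sequesters SMAD2 and SMAD3, was at 22.9, 16.2, 21.8 and 30.4 CPM in unstimulated cells and at 434, 386, 489 and 568 CPM at 24 h (4.36 ± 0.22, adjusted p = 1.08e-16). This was a 20.6-fold rise. Ski, a co-repressor that silences SMAD targets, went from 145, 132, 163 and 131 to 513, 438, 529 and 545 CPM (1.81 ± 0.10, adjusted p = 1.25e-15), and its relative Skil went from 137, 125, 108 and 108 to 259, 305, 368 and 377 CPM (1.45 ± 0.11, adjusted p = 1.39e-12). Both co-repressors were thus above every unstimulated library. Ldlrad4, another membrane protein that competes for the SMADs, changed by 3.34 ± 0.25, adjusted p = 9.89e-13. Spsb1, an adaptor that marks the type II receptor for destruction, went from 1.27, 0, 1.68 and 2.76 to 73.9, 66.9, 73.03 and 71.2 CPM (5.48 ± 0.39, adjusted p = 1.02e-12). Smad7, the inhibitory SMAD, went from 39.4, 41.2, 46.9 and 52.5 to 101, 105, 124 and 138 CPM (1.36 ± 0.15, adjusted p = 1.25e-08). The other inhibitory SMAD gene, Smad6, had 0 counts in all 8 libraries.

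Integrin genes rose in 4 of 14 measured members (28.6%, beside 9.75% of all tested genes) and fell in 1 (7.14%, beside 11.5%). Itgae, the α chain of the integrin CD103 that holds lymphocytes to E-cadherin of epithelium, was at 5.08, 1.25, 4.19 and 6.91 CPM in unstimulated cells and at 67.1, 112, 119 and 107 CPM at 24 h (4.51 ± 0.32, adjusted p = 4.38e-13). Itgb7, its β chain partner, went from 109, 135, 112 and 129 to 259, 196, 252 and 229 CPM (0.95 ± 0.15, adjusted p = 6.42e-06). Both chains of this receptor were therefore higher in all 4 libraries. Cdh1, which encodes E-cadherin itself, went from 3.81, 3.75, 8.38 and 8.29 to 30.9, 32.4, 31.3 and 37.1 CPM (2.37 ± 0.34, adjusted p = 1.67e-06). Itga1, the collagen-binding integrin CD49a of resident NK cells, went from 193, 186, 231 and 199 to 367, 353, 385 and 319 CPM (0.81 ± 0.12, adjusted p = 2.10e-06). Itgb2, the β chain of the leukocyte integrins, was the 1 that fell, from 231, 206, 194 and 251 to 172, 140.3, 159.5 and 165 CPM (-0.47 ± 0.10, adjusted p = 5.39e-04).

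Genes of tissue residency and type 1 innate lymphoid cells rose in 10 of 22 measured members and fell in 2, with a median log2 change of 0.42. These were 45.5% and 9.09%, beside 9.75% and 11.5% of all tested genes. Nt5e, the ectoenzyme CD73 that makes adenosine outside the cell, went from 8.90, 12.5, 7.55 and 11.1 to 52.4, 70.1, 56.6 and 74.2 CPM (2.68 ± 0.24, adjusted p = 8.02e-11). Ahr, the ligand-activated transcription factor of innate lymphoid cells, went from 30.5, 28.7, 53.7 and 24.9 to 85.9, 119.8, 127 and 165 CPM (1.77 ± 0.21, adjusted p = 2.90e-08). Tnfsf10, the death ligand TRAIL, went from 167, 137, 153 and 149 to 183, 225, 219 and 208 CPM (0.46 ± 0.11, adjusted p = 0.00162). These 3 genes had no overlap between the groups. Rgs2, a brake on G protein signalling, changed by 0.85 ± 0.13, adjusted p = 5.93e-06. Cxcr6, a chemokine receptor of resident cells, was not called (0.08 ± 0.13, adjusted p = 0.742). Eomes, a T-box factor of conventional NK cells that TGF-β is known to lower in some settings, was 1 of the 2 falls (-0.32 ± 0.10, adjusted p = 0.0132), and without 24 h replicate 3 its change was -0.25 at an adjusted p of 0.0774, and without both libraries numbered 2 it was -0.31 at 0.0622. Cd160, a receptor of the same list, was the other (-0.52 ± 0.12, adjusted p = 8.67e-04).

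Genes of circulating mature NK cells fell in 5 of 14 measured members and rose in 1. These were 35.7% and 7.14%, beside 11.5% and 9.75% of all tested genes. Klrg1, a maturation receptor that binds cadherins, went from 199.5, 204, 182 and 195 to 137, 144, 137 and 132 CPM (-0.50 ± 0.09, adjusted p = 1.14e-04). Cma1, a chymase gene, changed by -1.60 ± 0.29, adjusted p = 7.00e-05 and Ly6c2, a surface protein of mature cells, by -0.63 ± 0.15, adjusted p = 0.00200. The 1 rise was Cxcr4, the receptor that holds cells in bone marrow, from 3.81, 6.24, 1.68 and 4.14 to 12.1, 16.2, 8.94 and 22.3 CPM (1.94 ± 0.40, adjusted p = 3.94e-04). The survival receptor gene Il7r had 9 counts over the unstimulated libraries and 0 over those at 24 h, and the egress receptor genes S1pr1 and S1pr5 had at most 6 in either group; all 3 were under the filter and not tested. Of 8 measured chemokine receptors 3 were higher (37.5%) and 2 lower (25%). Among the 3 was Cmklr1, the chemerin receptor (1.63 ± 0.21, adjusted p = 2.00e-07).

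**Figure D2:**
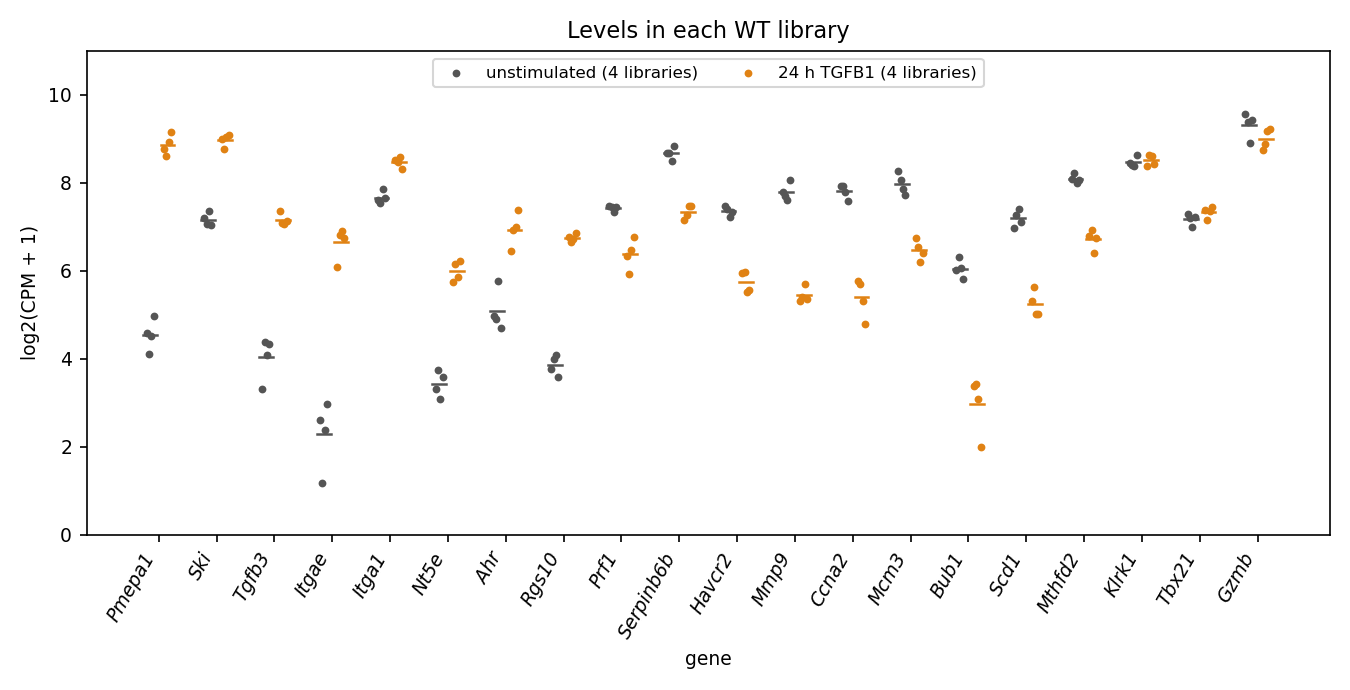
Each point is 1 WT library, as log2(CPM + 1), for 20 named genes on the x axis; grey points are the 4 unstimulated and orange points the 4 24 h TGFB1 libraries, and short lines are group means. Pmepa1 to Rgs10 lie higher and Prf1 to Mthfd2 lower at 24 h in every library, while Klrk1, Tbx21 and Gzmb overlap.

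Cell cycle genes made up 164 of the 1119 falls and 205 of the 9749 genes tested. Over 7 lists that cover G1, DNA replication, repair and mitosis, 164 of 205 measured genes were lower and 2 higher, with a median log2 change of -1.27. Among all tested genes 11.5% were lower and 9.75% higher. The list medians were -0.16 for G1 cyclins and inhibitors, -0.54 for nucleotide synthesis, -0.87 for DNA polymerases and fork proteins, -1.08 for DNA repair and checkpoints, -1.21 for origin licensing, -1.94 for mitotic cyclins and kinases and -1.97 for kinetochore and spindle genes. The lists were chosen with earlier results of these data known.

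Promoters of genes that fell are shown (sequence and starts from RefSeq, build GRCm38.p6, the build of mm10) because cell cycle genes are known to carry short elements near their start that bind repressor complexes. They were picked from the named genes because their windows hold a motif searched for below. That each shown window has a match was thus set by the choice. Windows of Kif11, Rrm2 and Spsb1, the last a gene that rose, also held a motif and are not shown. Each line holds the 250 bases before a start in the RefSeq table, 5′ to 3′ on the strand of the gene, with motif matches in capitals. The windows of Cdc20, Ccnb1 and Bub1 end at the outer edge of the annotated gene, while those of Cdc6 and E2f8 lie inside the annotated gene, before a start further in. The motifs were TTTGAA (the core of the cell cycle genes homology region, CHR), CCAAT (the box bound by NF-Y), TTTCCCGC (an E2F site), GGCGCC, TTTGGCGC (another E2F site) and GTCTAGAC (a SMAD binding element). Each was searched on both strands: capitals reading ATTGG mark a CCAAT box on the other strand. In the same way TTCAAA marks the CHR core, and GCGGGAAA an E2F site.
Cdc20 (chr4:118437344-118437593, minus strand): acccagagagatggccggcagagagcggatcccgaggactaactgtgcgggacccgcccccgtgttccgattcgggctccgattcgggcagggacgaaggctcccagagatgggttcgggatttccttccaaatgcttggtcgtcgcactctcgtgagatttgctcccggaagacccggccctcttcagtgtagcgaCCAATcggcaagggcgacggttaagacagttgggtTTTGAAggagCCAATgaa
E2f8 (chr7:48881597-48881846, minus strand): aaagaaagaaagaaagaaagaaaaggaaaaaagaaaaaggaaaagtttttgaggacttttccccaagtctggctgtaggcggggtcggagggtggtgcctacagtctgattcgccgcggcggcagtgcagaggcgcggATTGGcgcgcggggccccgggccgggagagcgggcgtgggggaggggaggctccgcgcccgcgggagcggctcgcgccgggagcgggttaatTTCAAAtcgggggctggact
Ccnb1 (chr13:100786487-100786736, minus strand): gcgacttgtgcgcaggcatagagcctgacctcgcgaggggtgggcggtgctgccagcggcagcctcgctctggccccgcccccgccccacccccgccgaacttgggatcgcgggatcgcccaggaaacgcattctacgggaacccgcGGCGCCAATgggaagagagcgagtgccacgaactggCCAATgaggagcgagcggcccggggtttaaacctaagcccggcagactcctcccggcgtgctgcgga
Bub1 (chr2:127831860-127832109, minus strand): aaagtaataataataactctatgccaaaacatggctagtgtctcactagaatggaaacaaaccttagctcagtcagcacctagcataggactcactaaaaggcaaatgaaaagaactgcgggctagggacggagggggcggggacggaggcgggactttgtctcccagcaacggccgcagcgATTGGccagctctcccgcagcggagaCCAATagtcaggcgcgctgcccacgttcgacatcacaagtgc
Cdc6 (chr11:98907901-98908150, plus strand): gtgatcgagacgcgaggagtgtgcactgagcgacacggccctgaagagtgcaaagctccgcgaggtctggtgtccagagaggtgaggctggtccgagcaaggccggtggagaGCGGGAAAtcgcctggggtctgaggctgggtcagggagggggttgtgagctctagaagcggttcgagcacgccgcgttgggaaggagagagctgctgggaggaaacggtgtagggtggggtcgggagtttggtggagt
The windows of Cdc20 and E2f8 held both TTTGAA and CCAAT, those of Cdc20, Ccnb1 and Bub1 held CCAAT in 2 places each, and that of Cdc6 held TTTCCCGC. In Ccnb1 the match to GGCGCC overlaps a CCAAT box. Of 9886 windows of tested genes (7756 of the 9749 genes had a window), 3.96% held TTTGAA together with CCAAT. The share was 8.57% of 1073 windows of genes that fell, 3.08% of 1005 windows of genes that rose, 26.0% of 50 windows of kinetochore and spindle genes and 30.4% of 23 windows of mitotic cyclin and kinase genes. CCAAT, with or without TTTGAA, was in 35.2% of all tested windows, 42.1% of those of genes that fell and 78.3% of those of mitotic cyclin and kinase genes. TTTCCCGC was in 1.82% of the windows of all tested genes, 3.08% of those of genes that fell, 1.69% of those of genes that rose and 3 of the 18 origin licensing windows, and in 0 of 31 windows of polymerase and fork genes and 0 of 23 of mitotic cyclin and kinase genes. GGCGCC was in 17.1% of all tested windows, 16.2% of those of genes that fell and 19.3% of those of genes that rose. TTTGGCGC was in 0.86%, 1.03% and 0.299% of the same sets, and GTCTAGAC in 0.233%, 0.373% and 0.299%. By list, TTTGGCGC was in 2 of 18 origin licensing windows and 3 of 50 kinetochore and spindle windows. It was in 0 of 31 windows of polymerase and fork genes and 0 of 23 of mitotic cyclin and kinase genes. A match describes these letters only, and binding was not measured.

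In G1, 10 of 30 measured genes fell (33.3%, beside 11.5% of all tested genes) and 1 rose. Without both libraries numbered 2 the counts were 6 and 0. The falls were largest in the E2F family members that are themselves made late in G1: E2f8, a repressor, went from 61.00, 62.4, 29.3 and 31.8 to 2.69, 7.55, 5.96 and 2.97 CPM (-3.15 ± 0.39, adjusted p = 1.08e-07), E2f7, its relative, changed by -2.34 ± 0.27, adjusted p = 2.48e-08, and E2f2, an activator, by -2.57 ± 0.27, adjusted p = 3.36e-09. Ccne1, the cyclin that opens S phase, went from 94.04, 86.1, 76.3 and 73.2 to 40.3, 38.9, 31.3 and 16.3 CPM (-1.34 ± 0.20, adjusted p = 2.37e-06). The inhibitor genes that TGF-β raises in epithelial cells, Cdkn2b (p15) and Cdkn1a (p21), changed by -0.23 ± 0.16 and -0.10 ± 0.11 and were not called, and neither was Myc (0.11 ± 0.39, adjusted p = 0.888). The 1 rise was Cdkn1b, the inhibitor p27, from 116, 101, 116 and 108 to 144, 154, 152 and 128 CPM (0.39 ± 0.12, adjusted p = 0.0131); without both libraries numbered 2 its change was 0.32 at an adjusted p of 0.122.

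In S phase, 19 of 20 origin licensing and helicase genes fell (95%, beside 11.5% of all tested genes), all but Orc2. Mcm3, a subunit of the replicative helicase, went from 306, 267, 231 and 211 to 106, 91.7, 73.03 and 83.1 CPM (-1.51 ± 0.12, adjusted p = 2.98e-12). Cdc6, which loads that helicase, changed by -2.31 ± 0.26, adjusted p = 1.62e-08, and Cdc45, which activates it, by -2.15 ± 0.24, adjusted p = 1.02e-08. Of 28 polymerase and fork genes, 23 fell (82.1%). Top2a, the topoisomerase that untangles replicated DNA, went from 667, 759, 669 and 553 to 293, 232, 218 and 174 CPM (-1.53 ± 0.13, adjusted p = 5.71e-11), and Pcna, the sliding clamp, changed by -1.10 ± 0.15, adjusted p = 9.02e-07. Enzymes that supply nucleotides fell in 16 of 23 genes (69.6%). The number was 12 to 15 without any one WT library and 12 without both libraries numbered 2. Rrm2, the regulated subunit of ribonucleotide reductase, went from 77.5, 73.7, 68.7 and 74.6 to 13.4, 8.63, 14.9 and 2.97 CPM (-2.86 ± 0.25, adjusted p = 6.22e-11), a 7.26-fold fall. Tk1 and Tyms, which make thymidylate, changed by -2.17 ± 0.22 and -1.57 ± 0.17. Among 26 repair and checkpoint genes 20 fell (76.9%), such as Brca1 (-2.70 ± 0.33, adjusted p = 7.64e-08).

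In mitosis, 26 of 28 cyclin, kinase and CDC20 pathway genes (92.9%) and all 50 measured kinetochore, spindle and cytokinesis genes fell, beside 11.5% of all tested genes. Ccna2, the cyclin of S phase and mitotic entry, was at 244, 242, 219 and 191 CPM in unstimulated cells and at 53.7, 50.7, 38.8 and 26.7 CPM at 24 h (-2.37 ± 0.15, adjusted p = 2.81e-14). Ccnb1, the mitotic cyclin, went from 133, 166, 145 and 127 to 40.3, 32.4, 23.9 and 25.2 CPM (-2.21 ± 0.18, adjusted p = 1.28e-11). Bub1, a kinase of the spindle checkpoint, went from 63.5, 78.7, 65.4 and 55.3 to 9.40, 9.71, 7.45 and 2.97 CPM (-3.09 ± 0.27, adjusted p = 4.20e-11). The groups did not overlap for these 3 genes. Foxm1, the transcription factor of the mitotic programme, changed by -1.86 ± 0.19, adjusted p = 1.36e-09 and Aurkb, the kinase of chromosome segregation, by -2.51 ± 0.26, adjusted p = 1.57e-09. Spc24, a kinetochore protein, had the smallest p of its list (-2.44 ± 0.14, adjusted p = 3.44e-15), and Mki67, the antigen Ki-67, changed by -1.67 ± 0.22, adjusted p = 3.33e-07. The summed level of the 50 kinetochore and spindle genes was 5787 to 7310 CPM in unstimulated libraries and 1637 to 2563 CPM at 24 h. Without both libraries numbered 2, 49 of the 50 were called lower. Of 25 measured chromatin genes, 8 fell (32%, beside 11.5% of all tested genes) and 3 rose (12%, beside 9.75%). Asf1b, a histone chaperone of replication, was at -1.91 ± 0.14, adjusted p = 1.01e-12 and Ezh2, the Polycomb methyltransferase, at -0.92 ± 0.17, adjusted p = 5.63e-05.

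Genes of lipid synthesis fell next to those of division. Of 23 measured cholesterol synthesis and uptake genes 20 were lower (87%, beside 11.5% of all tested genes) and 1 higher, with a median log2 change of -0.66. Their summed level went from 3844 to 4050 CPM to 2404 to 2957 CPM. Pmvk and Mvk, kinases of the mevalonate pathway, changed by -1.06 ± 0.13 and -1.002 ± 0.12. Srebf2, the regulator of the pathway, had a log2 change of 0.17 ± 0.20 and was not called. Among fatty acid and liver X receptor (LXR) target genes, 7 of 17 fell and 3 rose. These were 41.2% and 17.6%, beside 11.5% and 9.75% of all tested genes. Scd1, the desaturase that makes oleate, went from 125, 154, 169 and 137 to 38.9, 48.6, 31.3 and 31.2 CPM (-1.94 ± 0.18, adjusted p = 1.01e-10), and Elovl6, which lengthens fatty acids, changed by -1.27 ± 0.19, adjusted p = 2.26e-06. By contrast Abcg1, which exports cholesterol, and Mylip, a ubiquitin ligase that is a target of LXR, changed by 0.92 ± 0.17, adjusted p = 8.10e-05 and 0.88 ± 0.16, adjusted p = 5.62e-05.

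Serine, folate and ATF4 target genes fell in 11 of 20 measured members and rose in 0. Mthfd2, the mitochondrial folate enzyme of proliferating cells, went from 271, 297, 254 and 267 to 109, 119.8, 83.5 and 107 CPM (-1.36 ± 0.11, adjusted p = 3.09e-12). Phgdh, the first enzyme of serine synthesis, changed by -1.28 ± 0.17, adjusted p = 5.15e-07, and Shmt2, which passes serine carbon to folate, by -0.88 ± 0.10, adjusted p = 3.66e-08. Chac1, a glutathione-degrading enzyme, changed by -1.69 ± 0.25, adjusted p = 3.43e-06. Of 20 tRNA synthetase genes 9 fell (45%, beside 11.5% of all tested genes), led by Cars (-1.19 ± 0.16, adjusted p = 5.44e-07). Of 10 amino acid transporter genes 2 fell and 2 rose (20% each). Slc7a5, the transporter of large neutral amino acids, was not called (-0.25 ± 0.19, adjusted p = 0.400), but it was with depth as a covariate (-0.37, adjusted p = 0.0141). Glycolysis genes had 2 falls of 18 (11.1%, beside 11.5% of all tested genes), the glucose transporter Slc2a3 (-0.50 ± 0.11, adjusted p = 9.41e-04) and the lactate transporter Slc16a1 (-0.85 ± 0.19, adjusted p = 0.00101). Oxidative phosphorylation had 2 falls of 33 (6.06%), proteasome genes 6 of 29 (20.7%) and ribosome biogenesis 6 of 29 (3 without unstimulated replicate 2), with no rise in any of the 3. Most lysosome and autophagy genes were not called (24 of 29), 5 rose (17.2%, beside 9.75% of all tested genes) and 0 fell. Among the 5 were Gaa, the acid α-glucosidase (0.56 ± 0.16, adjusted p = 0.00716), and Mcoln1, a lysosomal calcium channel (0.81 ± 0.23, adjusted p = 0.00791), which was not called without 24 h replicate 1 (0.63, adjusted p = 0.0594). The number of rises in that list was 1 without 24 h replicate 1, 2 without 24 h replicate 3, and 3 without any one of 24 h replicate 4 and unstimulated replicates 1, 2 and 3.

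**Figure D3:**
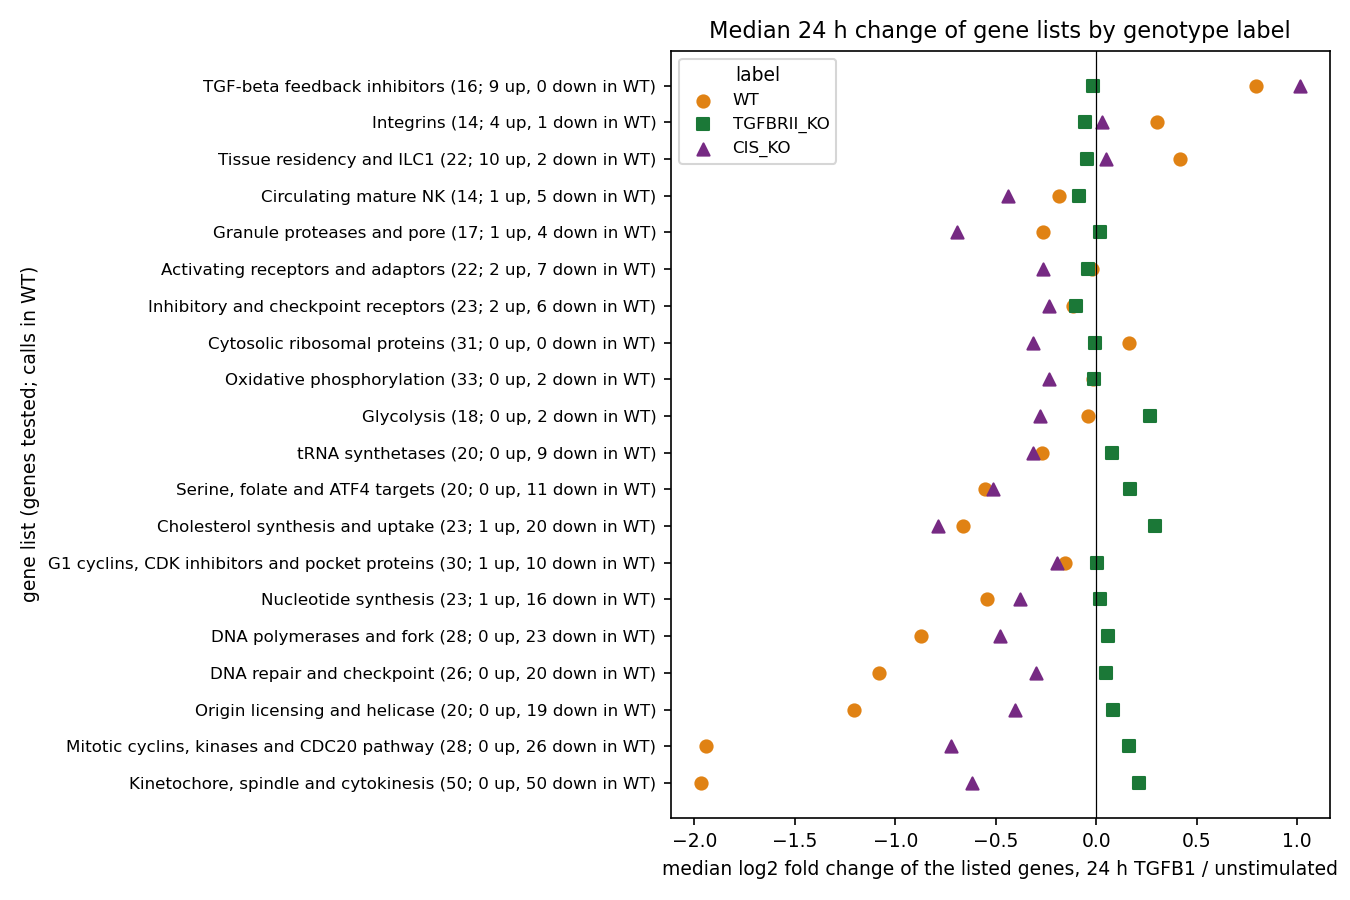
Points are the median log2 fold change of the genes of a list between 24 h TGFB1 and unstimulated cells, for libraries labelled WT (circles), TGFBRII_KO (squares) and CIS_KO (triangles); each label gives the genes tested and the calls in WT. Among the 20 lists plotted, medians of WT run from -1.97 for kinetochore and spindle genes to 0.80 for TGF-β feedback inhibitors, while those of TGFBRII_KO reach at most 0.29.

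Effector genes changed in a few members. Of 17 measured granule protease, pore and serpin genes 4 fell (23.5%, beside 11.5% of all tested genes) and 1 rose (5.88%, beside 9.75%). Prf1, which encodes perforin, the pore that lets granzymes into a target cell, was at 178, 174, 161 and 174 CPM in unstimulated cells and at 79.2, 59.4, 87.9 and 108 CPM at 24 h (-1.05 ± 0.17, adjusted p = 9.61e-06), a 2.08-fold fall with no overlap. Serpinb6b and Serpinb9, inhibitors that protect the killer from its own proteases, went from 407, 407, 361 and 456 to 141, 152, 176 and 177 CPM (-1.34 ± 0.10, adjusted p = 2.17e-12) and from 492, 417, 421 and 419 to 183, 157, 197 and 232 CPM (-1.20 ± 0.12, adjusted p = 8.68e-10). Ctsw, a cathepsin of killer lymphocytes, was the 1 rise (0.51 ± 0.13, adjusted p = 0.00516). The granzymes Gzma and Gzmb, the main proteases of the granule, changed by 0.09 ± 0.22 and -0.32 ± 0.18 and were not called. Gzmb was called lower with depth as a covariate (-0.44, adjusted p = 3.36e-06) and with no low-count filter (-0.33, adjusted p = 0.0403), and the number of falls among the 17 genes was 3 to 8 under the settings that keep all libraries and without both libraries numbered 2. Granzymes are near-identical in part and among the most abundant genes, and the slope of log count on log depth was 0.15 for Gzma and 0.38 for Gzmb against 0.86 for Prf1. Of the 10 genes highest per length in unstimulated cells, Gzmc, Rplp1, B2m, Tyrobp, Mt2, Gzma, Ndufa2, S100a4, Gzmg and Lgals1, only Lgals1 was called (-0.52 ± 0.18, adjusted p = 0.0385), and its call was lost without 6 of the 8 WT libraries left out singly (24 h replicates 1, 2 and 3 and unstimulated replicates 1, 2 and 4), with a change as small as -0.42 at an adjusted p of 0.142, and with a replicate block (adjusted p = 0.0624). With depth as a covariate, Gzmg (-0.55, adjusted p = 1.15e-06), Gzmc (-0.15, 0.0182), S100a4 (-0.20, 0.0352) and Mt2 (0.16, 0.0408) were called too. Gzmg was also called with no low-count filter (-0.40, adjusted p = 0.00925) and with only the groups compared (-0.40, adjusted p = 0.0424). Gzmc led this group at 683 CPM per kb in unstimulated cells and 689.7 at 24 h.

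Secreted signals changed in both directions. Of 12 measured cytokines 3 rose (25%, beside 9.75% of all tested genes) and 0 fell, with a median log2 change of 0.42. Of 6 measured chemokines 0 rose and 2 fell (33.3%, beside 11.5%), Ccl9 and Ccl3 (-0.65 ± 0.15, adjusted p = 0.00131). Ccl4 and Ccl5, further inflammatory chemokines, had log2 changes of -0.10 ± 0.20 and -0.02 ± 0.18 and were not called. Ifng, the interferon that NK cells make for macrophages, went from 71.2, 83.7, 102 and 105 to 75.2, 59.4, 68.6 and 83.1 CPM (-0.36 ± 0.14, adjusted p = 0.0567), with overlap and no call. Without 24 h replicate 4 or unstimulated replicate 1 its change was -0.44 and -0.46, at adjusted p of 0.0335 and 0.0159, and with depth as a covariate it was -0.37 (0.0412). Flt3l, the growth factor of dendritic cells and 1 of the 3 cytokine rises, rose from 153, 134, 140 and 167 to 275, 225, 276 and 264 CPM (0.81 ± 0.17, adjusted p = 5.99e-04). Mmp9, a gelatinase that cuts the extracellular matrix, went from 219, 207, 194 and 267 to 38.9, 41.01, 50.7 and 40.1 CPM (-2.37 ± 0.16, adjusted p = 8.32e-14), and Timp2, an inhibitor of such enzymes, from 189, 147, 144 and 160.2 to 326, 331, 335 and 301 CPM (1.02 ± 0.20, adjusted p = 2.21e-04). The protease fell and the inhibitor rose in all 4 libraries.

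Among receptors of the cell surface, falls outnumbered rises. Of 22 measured activating receptors and adaptors 7 fell (31.8%, but 4 genes without 24 h replicate 2) and 2 rose (9.09%). Of 23 inhibitory and checkpoint receptors 6 fell (26.1%) and 2 rose (8.7%). Among all tested genes 11.5% fell and 9.75% rose, so the rises in both lists were near that share. Slamf7, a receptor that can activate NK cells, went from 282, 258, 368 and 265 to 163, 132, 134 and 148 CPM (-1.04 ± 0.16, adjusted p = 3.63e-06). Ncr1, the natural cytotoxicity receptor NKp46, went from 250.4, 231, 216 and 258 to 179.9, 157, 207 and 145 CPM (-0.47 ± 0.10, adjusted p = 4.08e-04). Klrk1, which encodes the activating receptor NKG2D, changed by 0.05 ± 0.09, adjusted p = 0.761 and was not called. Havcr2, the inhibitory receptor TIM-3, went from 175, 167, 148 and 162 to 60.4, 61.5, 44.7 and 46.00 CPM (-1.59 ± 0.15, adjusted p = 3.19e-10), and the inhibitory receptors Lair1 and Lilrb4a changed by -1.47 ± 0.17, adjusted p = 1.87e-08 and -1.10 ± 0.17, adjusted p = 5.13e-06. Cd96, a receptor for nectin-like ligands, rose (0.43 ± 0.09, adjusted p = 7.00e-04). Tigit and Lag3 were under 10 CPM in both groups and not called. Members of the Klrb1 family have close copies and opposite changes: Klrb1f changed by -1.08 ± 0.18 and Klrb1b by 0.68 ± 0.10.

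Cytokine receptor and signalling genes changed in both directions. Of 15 genes of interleukin 2 and 15 signalling 4 rose (2 without 24 h replicate 4 or without unstimulated replicate 2) and 2 fell. Of 18 genes of interleukin 12, interleukin 18 and interferon reception 2 rose (0 or 1 without any one WT library) and 4 fell. The rises were 26.7% and 11.1% of these lists, beside 9.75% of all tested genes. The falls were 13.3% and 22.2%, beside 11.5%. Il2ra, the α chain that gives high affinity for interleukin 2, went from 91.5, 106, 103 and 82.9 to 28.2, 47.5, 58.1 and 71.2 CPM (-0.93 ± 0.19, adjusted p = 2.42e-04), while Il2rb, the β chain shared by the receptors of interleukins 2 and 15, was not called (0.13 ± 0.20, adjusted p = 0.701). Il18rap and Il12rb1, chains of the receptors that drive interferon-γ, changed by -1.49 ± 0.26, adjusted p = 3.53e-05 and -0.63 ± 0.12, adjusted p = 1.61e-04. Il12rb2, the second chain of the interleukin 12 receptor, was higher, from 26.7, 23.7, 24.3 and 27.6 to 40.3, 39.9, 34.3 and 43.03 CPM (0.63 ± 0.22, adjusted p = 0.0397), without overlap. Its call was lost without any one of the WT libraries except 24 h replicate 3 (adjusted p of 0.0515 to 0.0925), with DESeq2 (0.105), with library size alone (0.0618) and with no low-count filter (0.0621). The pro-survival gene Bcl2 rose from 306, 341, 366 and 319 to 458, 425, 449 and 484 CPM (0.44 ± 0.09, adjusted p = 2.95e-04), and Bmf, a pro-apoptotic member of the same family, rose from 35.6, 54.9, 54.5 and 56.6 to 130.2, 96.04, 119 and 116 CPM (1.18 ± 0.16, adjusted p = 8.78e-07). Genes on both sides of the survival balance were thus higher. Interferon-stimulated genes had 5 falls (3 without 24 h replicate 4 or without unstimulated replicate 1) and 1 rise of 29. These were 17.2% and 3.45%, beside 11.5% and 9.75% of all tested genes. The falls were led by Oas3, a sensor of double-stranded RNA (-2.37 ± 0.42, adjusted p = 4.04e-05).

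Transcription factors changed in 10 of 32 measured NK and innate lymphoid members. Of these 3 were higher (9.38%, beside 9.75% of all tested genes) and 7 lower (21.9%, beside 11.5%). The number of falls was 5 to 9 without any one WT library and 4 without both libraries numbered 2. Over that setting and those that keep all libraries it was 4 to 10. Myb, a factor of progenitors and dividing cells, went from 78.8, 63.7, 72.1 and 38.7 to 13.4, 10.8, 7.45 and 13.4 CPM (-2.49 ± 0.28, adjusted p = 1.08e-08). Maf and Runx1, factors of lymphoid differentiation, changed by -1.14 ± 0.16, adjusted p = 7.48e-07 and -0.93 ± 0.18, adjusted p = 1.46e-04. Runx3, which cooperates with SMADs at residency genes, went from 375, 379.5, 324 and 358 to 556, 452, 543 and 597 CPM (0.58 ± 0.11, adjusted p = 1.38e-04), so the 2 Runx genes moved in opposite directions. Tbx21, which encodes T-bet, the factor of NK maturation, changed by 0.16 ± 0.12, adjusted p = 0.419 and was not called. Among 15 AP-1, EGR and NR4A genes 5 rose (33.3%) and 1 fell (6.67%). Mafk, a small MAF partner, was at 1.42 ± 0.22, adjusted p = 7.08e-06, Egr1 at 0.68 ± 0.14, adjusted p = 2.26e-04 and Ier3, an early response gene, at -0.68 ± 0.15, adjusted p = 0.00112.

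Signalling genes for phosphoinositides, G proteins and cyclic nucleotides rose in 6 of 27 members and fell in 3. These were 22.2% and 11.1%, beside 9.75% and 11.5% of all tested genes. Rgs10, which shortens G protein signals, went from 12.7, 14.98, 15.9 and 11.1 to 107, 99.3, 104 and 116 CPM (2.92 ± 0.21, adjusted p = 3.72e-13), a 7.56-fold rise. Inpp5d and Inpp4b, phosphatases that remove phosphoinositide signals, rose (0.46 ± 0.10, adjusted p = 5.67e-04 and 0.73 ± 0.15, adjusted p = 2.07e-04). Pik3r5, a regulatory subunit of a phosphoinositide kinase, fell (-0.76 ± 0.14, adjusted p = 1.04e-04). Within the cytoskeleton, Tpm4, a tropomyosin, went from 306, 281, 277 and 293 to 129, 136, 131 and 166 CPM (-1.04 ± 0.11, adjusted p = 1.27e-09) and Myh9, a non-muscle myosin, from 533, 522, 451 and 485 to 794, 575, 796 and 1037 CPM (0.68 ± 0.12, adjusted p = 4.01e-05), while Actb was not called (0.18 ± 0.22, adjusted p = 0.623).

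The WT response was next compared with that of libraries labelled TGFBRII_KO, which share no library with WT, to ask how far it depends on the receptor. There 2 genes were called at 24 h (0.0205% of those tested), both higher: Chac1 (1.23 ± 0.23, adjusted p = 0.0318) and Kdm4b, a histone demethylase named after its values were seen (0.99 ± 0.19, adjusted p = 0.0318). The difference of the responses was called for 1061 genes (10.9%), of which 320 were among the 951 rises of WT (the WT response being higher) and 637 among its 1119 falls (the WT response being lower). The difference uses the same WT libraries as those rises and falls, so part of this overlap is built in. Over the genes that rose in WT the median log2 change in TGFBRII_KO was 0.01, and over those that fell it was 0.04. Ski changed by -0.12 ± 0.14 under that label, a difference from WT of 1.94 ± 0.18 (adjusted p = 1.13e-09). Pmepa1 changed by -0.43 ± 0.56 (difference 4.79 ± 0.66, adjusted p = 1.87e-06), Tgfb3 by -0.26 ± 0.29 (difference 3.40 ± 0.35, adjusted p = 6.85e-09) and Itgae by -0.96 ± 0.78 (difference 5.47 ± 0.93, adjusted p = 5.93e-05). Ccna2 changed by 0.06 ± 0.13, a difference of -2.43 ± 0.21 (adjusted p = 3.14e-10). These 5 differences were called without each library in turn.

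By list, the response of WT was above that of TGFBRII_KO (3.97% of all tested genes) for 6 of 16 TGF-β inhibitors, 8 of 22 residency genes and 4 of 14 integrins. It was below (6.91% of all tested genes) for 137 of the 205 cell cycle genes, 19 of 23 cholesterol genes and 9 of 20 serine, folate and ATF4 target genes. Cholesterol genes had a median log2 change of 0.29 under the TGFBRII_KO label and none was called there. The 8 genes with the largest difference and at least 5 CPM in a group were Pacsin1 (8.57 ± 1.25), Scn3b (8.57 ± 2.37), Rnase6 (8.22 ± 2.26), Ccdc74a (6.77 ± 1.69), Ncmap (6.59 ± 2.15), Hsf2bp (6.46 ± 1.89), Ryr1 (-6.21 ± 1.25) and Gpr155 (5.97 ± 1.52). All 8 are at or near 0 in some libraries, so these sizes depend on the prior count of the fit. Pacsin1 and Ryr1 were called without each library in turn. The calls of Gpr155 and Ccdc74a were lost without unstimulated TGFBRII_KO replicate 1 (adjusted p = 0.202 and 0.162), and those of Rnase6 and Hsf2bp without unstimulated TGFBRII_KO replicate 1 (0.0962 and 0.0562) or replicate 3 (0.0922 and 0.196). Scn3b lost its call without unstimulated TGFBRII_KO replicate 2 (6.04, adjusted p = 1), and Ncmap lost it without 10 of 14 libraries left out singly. Igha was at 0 CPM in the 3 unstimulated libraries of this label and at 2.00 ± 2.46 CPM (n = 3) at 24 h, against 1.00 ± 1.31 and 158 ± 28.1 CPM (n = 4) in WT. With a group at 0 its fitted difference had an SE of 18.17. This SE and the adjusted p of 0.944 come from the same test and carry no information on the response. Vipr2 was at 0.810 ± 1.40 and 1.19 ± 1.19 CPM under this label, against 7.23 ± 2.59 and 168 ± 10.04 CPM in WT (difference 4.04 ± 1.60, adjusted p = 0.108).

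**Figure D4:**
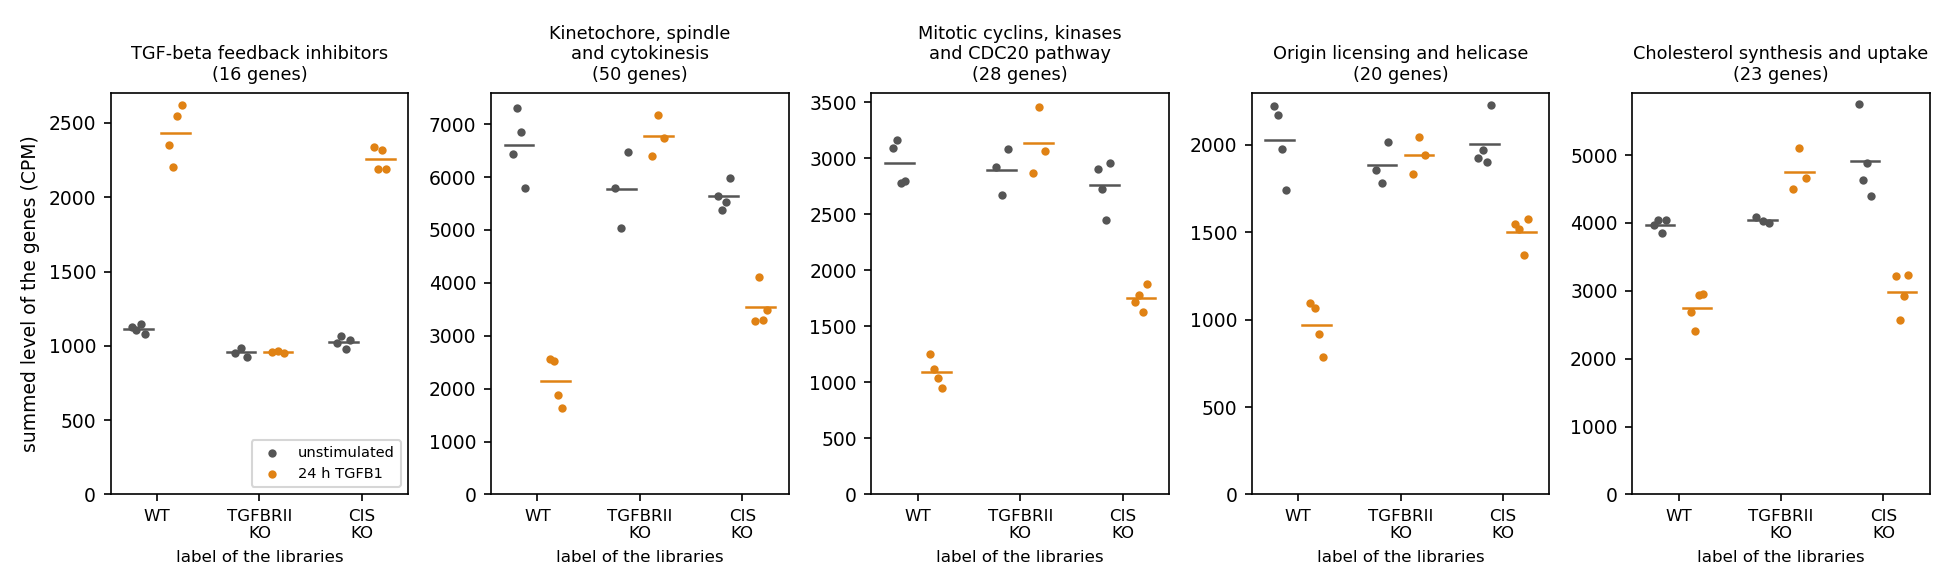
Each point is 1 library and gives the summed CPM of the genes of a list; grey is unstimulated, orange 24 h TGFB1, and short lines are means. For kinetochore and spindle genes the 24 h libraries sit at 1637 to 2563 in WT, 6402 to 7176 in TGFBRII_KO and 3285 to 4113 in CIS_KO.

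In libraries labelled CIS_KO, 2368 genes (24.3%) were called at 24 h. The difference between the WT and CIS_KO responses was called for 132 genes (1.35%), 13 with the WT response higher and 119 with it lower. Cell cycle genes made up 70 of the 119, or 58.8%, and these 70 were 34.1% of the 205 cell cycle genes measured, while 1.22% of all tested genes had a lower WT response. The median log2 change of the 205 genes was -1.27 in WT, -0.49 in CIS_KO and 0.08 in TGFBRII_KO. Ccna2 changed by -0.75 ± 0.14 in CIS_KO against -2.37 ± 0.15 in WT (difference -1.62 ± 0.21, adjusted p = 1.66e-05). For Tpx2, a spindle assembly factor, the changes were -0.50 ± 0.16 and -2.38 ± 0.17 (difference -1.88 ± 0.24, adjusted p = 1.65e-05). Mcm3 differed by -1.05 ± 0.16 (adjusted p = 2.19e-04). For these 3 genes the fall in WT was the larger.

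The summed kinetochore and spindle genes showed the same order, from 5375 to 5988 CPM in unstimulated CIS_KO cells to 3285 to 4113 CPM at 24 h. The 8 genes with the largest difference were Zik1 (-3.50 ± 0.75), Fancd2os (-2.80 ± 0.68), Exo1 (-2.73 ± 0.70), Neil3 (-2.72 ± 0.66), Pbk (-2.52 ± 0.32), Esco2 (-2.41 ± 0.53), Pask (-2.36 ± 0.49) and Bub1 (-2.32 ± 0.37). Most act in division or DNA repair: Esco2 joins sister chromatids, Exo1 is an exonuclease, Neil3 a DNA glycosylase and Pbk a mitotic kinase. Bub1, Pbk, Zik1 and Pask were called without each library in turn, but with depth as a covariate Zik1 (-3.11, adjusted p = 0.0696) and Pask (-2.02, adjusted p = 0.0617) were not. The other 4 were called neither with depth as a covariate nor without 24 h CIS_KO replicate 2, and Fancd2os, Neil3 and Exo1 lost the call without 3, 5 and 8 of 16 libraries in all, WT 24 h replicates 3 and 4 among them. TGF-β inhibitors had a median log2 change of 1.01 in CIS_KO and 0.80 in WT, and cholesterol genes -0.79 and -0.66, and edgeR's test of the difference called 0 members of either list, with 2 of 16 and 5 of 23 at an unadjusted p under 0.05. Of the 13 genes with a higher WT response, Itgb2 fell by more in CIS_KO (-1.16 ± 0.11; difference 0.69 ± 0.15, adjusted p = 0.00653), and this was not called with depth as a covariate (0.49, adjusted p = 0.0778). The count of 132 depended on single libraries, being 76 without 24 h CIS_KO replicate 2 and 200 without unstimulated CIS_KO replicate 4, and it was 52 with depth as a covariate, 51 of these with the lower WT response.

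**Figure D5:**
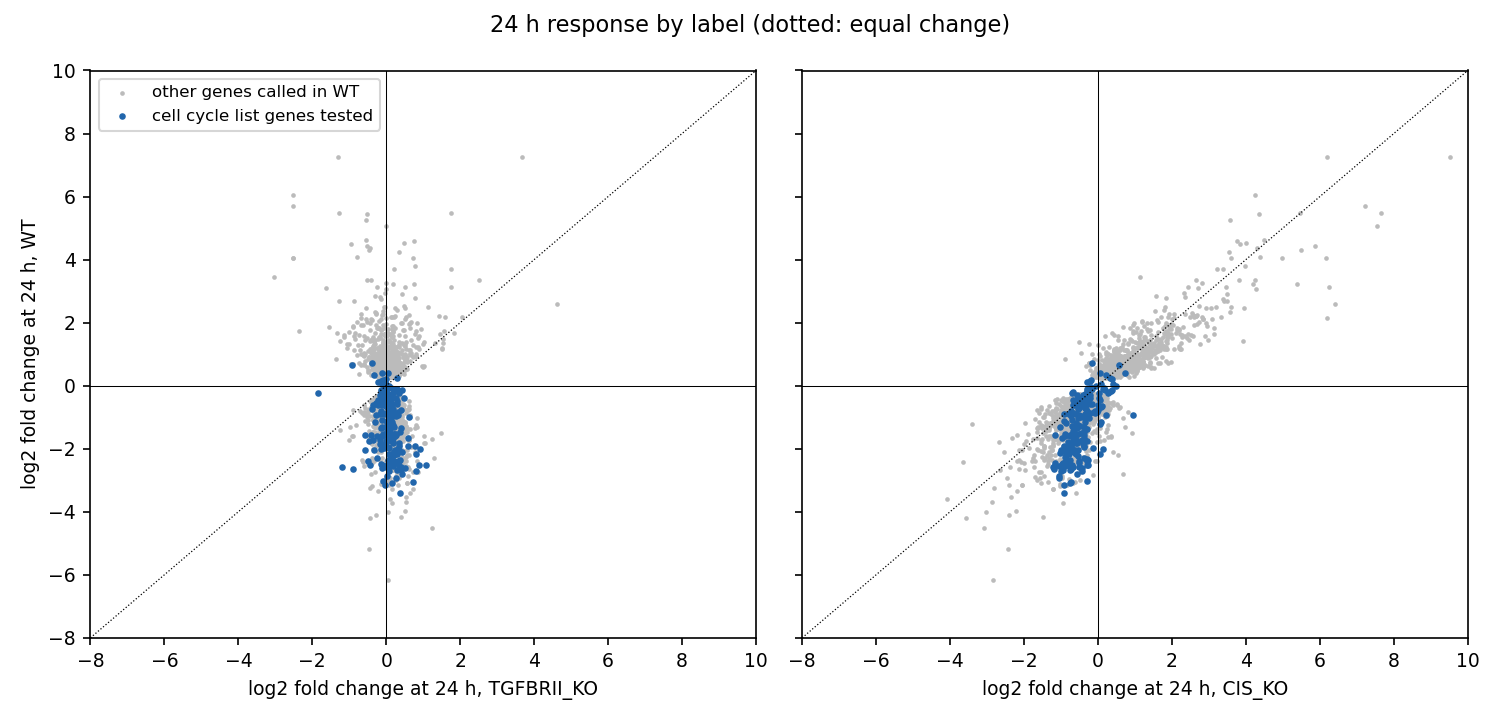
Each point is a gene, with its log2 fold change at 24 h in WT (y axis) and under the label TGFBRII_KO (left) or CIS_KO (right; x axes); blue points are the 205 cell cycle genes, grey points other genes called in WT, and the dotted line marks equal change. On the left, blue points spread along the vertical axis near 0, and on the right most lie below the dotted line, with medians of -1.27 in WT and -0.49 in CIS_KO.

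Values of WT cells at 4 h, in 2 libraries that are compared with the same unstimulated libraries, are set beside those at 24 h for the order in time. The 4 h libraries were replicate 1, the shallowest of all 31 with 297561 counts, and replicate 4 with 806473. At 4 h, 681 genes were higher (6.99%) and 491 lower (5.04%). Pmepa1 was at 665 and 581 CPM in the 4 h libraries, with a log2 change of 4.76 ± 0.25 against 4.36 ± 0.22 at 24 h, and Ski had changes of 2.002 ± 0.12 and 1.81 ± 0.10. Itgae was at 7.52 and 7.52 CPM at 4 h (0.79 ± 0.70) and changed by 4.51 ± 0.32 at 24 h. Ccna2 changed by -0.52 ± 0.17 at 4 h and by -2.37 ± 0.15 at 24 h, and Bub1 by -0.68 ± 0.27 and -3.09 ± 0.27. For both genes the 2 libraries at 4 h lay apart, at 120 and 174 CPM for Ccna2 and 18.8 and 50.1 CPM for Bub1. The median change of kinetochore and spindle genes was -0.42 at 4 h and -1.97 at 24 h, and that of cholesterol genes was -0.74 and -0.66. Prf1 changed by -0.28 ± 0.21 at 4 h and -1.05 ± 0.17 at 24 h, and Havcr2 by -0.22 ± 0.18 and -1.59 ± 0.15. No test compared the 2 times.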

How the data were processed

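RNA of sorted NK cells was sequenced from a strand-marking library kit, per the labels' protocols. The deposited values are whole-number read counts per Entrez gene for 31 libraries, made by the authors with Trimmomatic, Subread and featureCounts on mm10, per the submitters' processing notes. For versions and the strand setting nothing was given in the sources used here. Groups came from the labels. Symbols came from RefSeq for 25275 of 27179 gene identifiers and from GENCODE for 18; 1886 without a symbol held 0.956% of counts. The labels call replicates biological and do not name the animals or cultures, so p-values measure only the spread between these samples, which may be technical.

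Counts were fitted with edgeR 4.0.16 (R 4.3.3, limma 3.58.1): filterByExpr on the 9 groups, TMM scaling, 9 groups in 1 quasi-likelihood fit, Benjamini-Hochberg adjustment over all 10275 genes tested on any chromosome, of which the 9749 autosomal genes are reported. CPM use TMM-scaled library sizes, and levels are per library or mean ± SD. A "log2 change" is a log2 fold change ± SE. This SE was derived from the test, as the absolute change divided by the square root of its F value. The difference of 2 responses is an interaction contrast. The fit was also run on simulated counts with known changes set in the WT 24 h group alone. Far fewer genes were changed there than were called in these data. That run therefore does not describe the calls here, and its outcome is not reported. Named genes were the targeted genes, the 15 largest changes in each direction with separate libraries and at least 5 CPM, up to 5 smallest p plus fixed anchors of each list, the 8 largest differences of response per contrast, and the 10 highest per length; some genes of this rule are not reported here. Members and lists were chosen with earlier results of these data known.

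Alternatives were DESeq2 1.42.0, its size factors, library size alone, no filter, only the groups compared, a replicate block, depth as a covariate, each library left out, and, chosen after seeing the data, both WT libraries numbered 2 left out.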

Additional observations from a re-analysis of the deposited data

Results flagged for a closer look

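Among 348 groups of 4 libraries of the named genes, 28 had 1 library far from the other 3, where chance flags about 1 in 20 groups. Unstimulated replicate 3 stood apart for 5 genes with counts in every library: Lgals1 at 354.6 CPM (others 475.3 to 500), S100a4 at 237.2 (320.2 to 327.4) and Tyrobp at 308.5 (427 to 439.2) were low, while Cars at 88.86 (77.35 to 78.79) and Rgs2 at 66.23 (60.77 to 61.17) were high. Unstimulated replicate 1 was low for Bmf at 35.58 CPM (54.49 to 56.63) and high for Pcna at 116.9 (77.35 to 82.4) and Serpinb9 at 491.8 (417 to 420.8). Unstimulated replicate 2 was low for Gaa at 44.94 CPM, and unstimulated replicate 4 was low for Cdc45 at 53.87 and high for Cmklr1 at 42.82 and Zik1 at 19.34. At 24 h, replicate 1 was high for Brca1 at 12.09 CPM (2.968 to 4.316) and Cdc45 at 28.2 (10.39 to 12.95). Replicate 2 at 24 h was high for Foxm1 at 31.29 CPM and low for Lag3 at 4.316 and Trbc2 at 71.22, replicate 3 was high for Cd160 at 198.2, and replicate 4 was high for Rgs2 at 136.5 and Cdkn1a at 238.9. In 8 groups the library that stood apart was the only one with a count: Acvrl1 at 1.079, Bco1 at 2.158, Mlf1 at 2.158 and Rnf183 at 1.079 CPM in 24 h replicate 2, Psg17 at 1.343 in 24 h replicate 1, and Ccdc74a at 1.677, Rnase6 at 2.497 and Scn3b at 1.271 in unstimulated replicates 3, 2 and 1.

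The response of WT differed by an interaction test from that of TGFBRII_KO for 1061 genes and from that of CIS_KO for 132. Against TGFBRII_KO the log2 differences, WT minus knockout, were 8.57 for Scn3b, 8.57 for Pacsin1, 8.22 for Rnase6, 6.77 for Ccdc74a, 6.59 for Ncmap, 6.46 for Hsf2bp, 5.97 for Gpr155, 5.47 for Itgae, 4.79 for Pmepa1, 3.40 for Tgfb3, 1.94 for Ski, -2.42 for Ccna2 and -6.21 for Ryr1. Against CIS_KO they were 0.69 for Itgb2, -1.05 for Mcm3, -1.62 for Ccna2, -1.88 for Tpx2, -2.32 for Bub1, -2.36 for Pask, -2.41 for Esco2, -2.52 for Pbk, -2.72 for Neil3, -2.73 for Exo1, -2.80 for Fancd2os and -3.50 for Zik1.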

How the results depend on the processing

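The 2070 genes called in WT became 1573 with DESeq2, 1708 with only the groups compared and 2623 with depth as a covariate, and 1751 to 1933 without 1 library. The 1061 genes whose response differed from TGFBRII_KO became 784 to 1394 under the other settings and 817 to 1199 without 1 library. The 132 genes that differed from CIS_KO were 317 with no low-count filter (119 higher and 198 lower in WT), 81 with only the groups compared, 52 with depth as a covariate and 76 to 200 without 1 library. The share with the higher WT response was 9.85% of the 132, 37.5% with no filter and 22.1% without WT 24 h replicate 2. The cause was not tested.

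With depth as a covariate, 8 named genes that were not called became so in edgeR's quasi-likelihood test: Gzmg (-0.55), Gzmb (-0.44), Slc7a5 (-0.37), Ifng (-0.37), Trbc2 (-0.31), S100a4 (-0.20), Mt2 (0.16) and Gzmc, which went from 0.02 to -0.15 (adjusted p = 0.0182). Of 145 named genes called in WT, 140 to 145 stayed called under each setting, and none reversed. Most named genes were picked by a small p or a large change in the main fit, so this does not describe all calls. Of all 2070 calls, 1572 (DESeq2) to 2043 (depth as a covariate) were kept under the settings that keep all libraries.

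Same-numbered WT libraries had correlations of their deviations from -0.40 to 0.10, and libraries with other numbers -0.25 to 0.32, so the numbers were not used as pairs, although the summed Y-linked transcripts had the same order by number in both WT groups. A replicate block gave 1953 called genes in WT, 1018 that differed from TGFBRII_KO and 111 that differed from CIS_KO. Depth limits genes with few counts, and intervals of weak genes are wide.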
